A study of Mus musculus and Rattus norvegicus with 36 samples.

Results

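Livers from 3 rats given 2 μg Se/g diet were compared with livers from 3 rats given 0.24 μg Se/g diet, the level that meets the Se requirement, on Affymetrix Rat Genome arrays. All 6 animals were male weanling Holtzman rats kept for 28 d on one Se-deficient torula yeast basal diet, and the groups differed in the selenite added to it. They are 6 of the 36 arrays of a series on dietary Se in mice and rats. Each array is the perfused liver of 1 rat, so the p-values rest on the spread between animals, 3 per diet. That spread is 1 estimate per probe set, pooled over the diets of the fit. It therefore does not describe the rats at 2 μg Se/g by themselves. In whole liver, fewer cells of a type and less RNA per cell cannot be told apart. The comparison covers all 31042 probe sets that are not array controls, and it addresses which transcripts change at a Se intake well above the requirement but below 5 μg Se/g, the highest diet used. The values are log2 signals made by the authors, so a difference of 1 is 2-fold. A probe set is called changed at an adjusted p under 0.05 in limma, fitted over the 12 arrays of the same rat study (Se-deficient, 0.24, 2 and 5 μg Se/g).

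Selenium acts in the body mainly as selenocysteine in selenoproteins, among them the glutathione peroxidases (Gpx), which reduce peroxides, and the thioredoxin reductases. The liver makes selenoprotein P for export and turns surplus Se into methylated metabolites for excretion. Excess selenite reacts with thiols, and the transcription factor Nrf2, which senses reactive compounds through thiols of its partner Keap1, switches on genes for glutathione synthesis, conjugation and carbonyl reduction.

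Rgs4, a regulator of G-protein signalling that speeds the return of G-protein alpha subunits to their inactive state, rose at 2 μg Se/g. Its log2 signal was 6.06, 5.82 and 6.004 in the 3 rats at 0.24 μg Se/g and 7.62, 7.49 and 7.72 in the 3 rats at 2 μg Se/g. The lowest rat at 2 μg Se/g was therefore well above the highest control. The change was 1.65 on the log2 scale (SE 0.12, n = 3 per diet), 3.14-fold, with a limma adjusted p of 0.00045. It was the 1 probe set called of 31042 (0.00322%), and 0 were called lower. A second Rgs4 probe set was dimmer and did not pass, at 4.77, 4.81 and 4.99 in the controls and 6.04, 5.68 and 5.92 at 2 μg Se/g (log2 difference 1.02, SE 0.14, limma adjusted p = 0.11). With the 6 arrays of the 2 diets fitted on their own, Rgs4 no longer passed (limma adjusted p = 0.071) and 0 probe sets were called, with 1957 at an unadjusted p under 0.05.

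At 5 μg Se/g, a comparison that shares the same controls, Rgs4 was at 6.59, 6.78 and 6.99. These 3 rats lay between the controls and the rats at 2 μg Se/g, and limma called both differences (3.34% of probe sets were called between 5 and 2 μg Se/g), 0.82 above 0.24 μg Se/g (adjusted p = 0.0039) and 0.82 below 2 μg Se/g (adjusted p = 0.0078). In Se-deficient rats its mean was 5.89. Rgs4 thus had its highest mean of these 4 diets at 2 μg Se/g. Of the 16 measured genes among regulators of G-protein signalling, 1 was called higher and 0 lower. Rgs5, known from pericytes, was 6.68, 5.89 and 6.81 in controls and 6.39, 7.15 and 7.99 at 2 μg Se/g, so its groups overlapped.

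Although 1 probe set passed, 4762 probe sets (15.3%) had an unadjusted p under 0.05, and 8 (0.0258%) an adjusted p under 0.2. Without overlap between the 3 rats of each diet were 1817 probe sets with higher values (5.85%) and 2142 with lower values (6.90%). By chance 5% would be without overlap in 1 direction and 10% in both, so a lack of overlap says little of a single gene. On the same controls, 875 probe sets (2.82%) were called at 5 μg Se/g. In data simulated with the residual spread of these arrays, 29.9% of changes of log2 0.5, 80.6% of changes of 1 and 100% of changes of 2 were found. Of 150 calls in all, 10 were false. The simulated arrays were independent, with 1 spread per probe set for every diet. They held neither the wider spread at 2 μg Se/g nor shifts shared across an array. These shares therefore check the fit and do not say how many real changes it found here.

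Next to Rgs4 among genes with a symbol, in the order of p, stood Oxct1, Cirbp, Akr1b8, Ccdc80 and Wwc3, none of them called in the fit of 12 arrays. Oxct1, the mitochondrial enzyme that lets tissues use ketone bodies, is known as being low in hepatocytes. Its log2 signal was 6.25, 6.25 and 6.18 at 0.24 μg Se/g and 7.14, 6.84 and 6.84 at 2 μg Se/g, a difference of 0.71 (SE 0.10, limma adjusted p = 0.11). The groups did not overlap, and at 5 μg Se/g it was called higher, by 1.07. Of the other 5 ketone body genes measured, Bdh1, which makes β-hydroxybutyrate, differed by 0.01 and Acat1 by −0.14.

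Cirbp, a cold-inducible RNA-binding protein, was the lower-valued gene of this set. It was 7.90, 7.93 and 7.78 in controls and 6.95, 6.95 and 7.11 at 2 μg Se/g, a difference of −0.87 (SE 0.12, limma adjusted p = 0.11). Both of its other probe sets were also lower in all 3 rats, by −0.52 and −0.59. At 5 μg Se/g Cirbp differed by −0.21 from the controls and was not called, and limma called it higher at 5 than at 2 μg Se/g, by 0.66 (adjusted p = 0.019). Rbm3, the other cold-inducible protein measured, was 8.41, 8.82 and 8.06 in controls and 7.82, 7.90 and 8.37 at 2 μg Se/g, with overlap.

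Ccdc80, a secreted protein of the extracellular matrix, was 10.16, 10.21 and 10.01 at 0.24 μg Se/g and 11.40, 11.20 and 11.11 at 2 μg Se/g. The difference was 1.11 (SE 0.17, limma adjusted p = 0.15), and at 5 μg Se/g it was 0.48 and not called. Wwc3, a relative of the Hippo pathway protein Kibra, was 8.22, 8.31 and 8.17 against 9.34, 9.09 and 8.80, a difference of 0.85 (SE 0.13, limma adjusted p = 0.15). With all 18 rat liver arrays in one fit, Rgs4, Cirbp, Ccdc80, Wwc3, Oxct1 and 1 probe set without a symbol were called, at adjusted p of 0.0046, 0.020, 0.020, 0.020, 0.021 and 0.028. The added arrays come from another rat study. They changed the estimate of the spread and the number of arrays behind it, and left the differences as they were. The SE rose for Rgs4 (0.12 to 0.19) and Oxct1 (0.097 to 0.103). It fell for Ccdc80 (0.17 to 0.15) and Wwc3 (0.13 to 0.12), and for Cirbp it was 0.12 in each fit.

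Akr1b8, an aldo-keto reductase that reduces reactive aldehydes, was the gene of this set that differed most between the 3 rats. It was 5.54, 5.56 and 5.26 in controls and 6.48, 7.29 and 7.62 in replicates 1, 2 and 3 at 2 μg Se/g. The difference of 1.68 (SE 0.25) had a limma adjusted p of 0.15. Without replicate 1 it was 2.00 (SE 0.18, adjusted p = 0.0032), and Akr1b8 and Rgs4 were then the 2 probe sets called. At 5 μg Se/g its mean was 10.08, 4.63 above the controls and called. The 5 μg Se/g rats lay higher than every rat at 2 μg Se/g, the reverse of Rgs4.

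**Figure D1:**
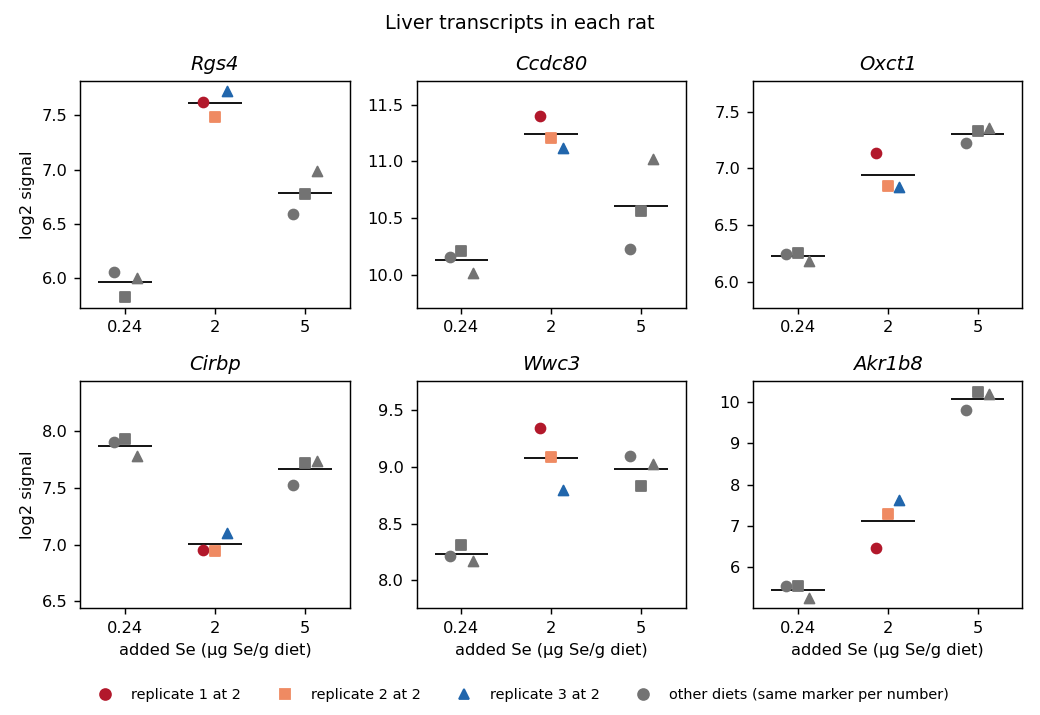
Log2 signal of 6 genes (y axis) in each rat at 0.24, 2 and 5 μg Se/g diet (x axis). Points are rats, with a marker for each replicate number, and horizontal lines are means of 3. Rgs4 is highest at 2 μg Se/g (7.49 to 7.72), Cirbp is lowest there, and Akr1b8 is highest at 5 μg Se/g.

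The study names 9 genes at 2 μg Se/g, chosen on these arrays and so no independent evidence of their direction. Of the 7 that could be matched by symbol, 1 was called (Rgs4), and the 2 not matched may stand among the probe sets under another symbol. By the titles and fold changes that the study lists, Wwc3 and AKR1C3l1 may be these 2. Neither can therefore be counted as a gene beyond those the study names. Over the 7, the median difference was 0.71 against −0.04 over all 14217 genes. Of the remaining members, Tsku, a secreted leucine-rich repeat protein, was 9.61, 9.81 and 10.41 in controls and 11.20, 11.14 and 11.13 at 2 μg Se/g. That difference was 1.22 (SE 0.24, limma adjusted p = 0.32), without overlap. Hsph1, a large heat shock protein that aids Hsp70, was 10.47, 10.38 and 10.82 against 11.48, 11.06 and 11.17, and limma called it lower at 5 than at 2 μg Se/g (adjusted p = 0.021). Timp3, an inhibitor of matrix metalloproteinases, was 0.58 above the controls (SE 0.21, adjusted p = 0.32) and was called at 5 μg Se/g, at 1.84. Its other probe sets differed by 0.81, 0.77 and 0.22 at 2 μg Se/g, without overlap, and the last of them was not called at 5 μg Se/g.

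Genes that the study links to glucose, insulin and glycoproteins were likewise chosen by it. None of the 6 measured was called at 2 μg Se/g, and 4 had values without overlap, all higher, as had 6.37% of all genes. Grb10, an adapter that dampens insulin receptor signalling, was 5.58, 5.69 and 5.36 in controls and 6.02, 6.20 and 6.46 at 2 μg Se/g (difference 0.68, SE 0.12, limma adjusted p = 0.28). Its other 2 probe sets differed by 0.13 each. Chsy1, which builds chondroitin sulfate, differed by 0.62, and Sort1, the sorting receptor sortilin, by 0.54. Star, which carries cholesterol into mitochondria, was 5.72, 5.64 and 5.52 against 5.64, 5.67 and 5.60, while at 5 μg Se/g it was called higher, by 1.65.

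Other genes among the 25 with the smallest p were none of them called, with limma adjusted p of 0.20 to 0.32. Their groups did not overlap, which largely follows from choosing them by p and is no separate evidence. Ddr2, a receptor tyrosine kinase for collagen, was 4.66, 5.40 and 4.80 in controls and 6.22, 5.97 and 5.996 at 2 μg Se/g, a difference of 1.11 (SE 0.22). Its other 2 probe sets differed by 0.44, without overlap, and −0.08. Gpc6, a glypican, differed by 0.62 on the probe set with the highest mean, but by −0.35 (without overlap), 0.06 and −0.02 on its other 3. Reck, a membrane-bound inhibitor of matrix metalloproteinases, differed by 0.73. Arsb, a lysosomal sulfatase of dermatan sulfate, differed by 0.50, and by 0.11 with overlap on its other probe set.

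Eps8, an actin-binding substrate of the epidermal growth factor receptor, differed by 0.80, and by 0.33 and 0.12 on its other probe sets. Gna12, a G-protein alpha subunit, differed by 0.43, and by 0.55 on its other probe set. Lower values were found for AKR1C3l1, an aldo-keto reductase family member, at 10.56, 10.50 and 10.47 against 9.27, 9.27 and 9.61 (difference −1.13, SE 0.21). Cryz, a quinone reductase, differed by −0.48 and the defensin Np4 by −0.85. AKR1C3l1 and Akr1b8, of one enzyme superfamily, thus had values on opposite sides of the controls, and at 5 μg Se/g limma called both, AKR1C3l1 at −1.71.

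Gene lists were compared over all their members, beside all 14217 genes with 1 symbol, of which 9.45% were higher and 9.21% lower at an unadjusted p under 0.05. No member of the lists other than Rgs4, the 1 gene called of all of these (0.00703%), was called at 2 μg Se/g. For the selenoproteins, 22 were measured, and 3 had higher and 4 lower values at this unadjusted p. Gpx1, the most abundant liver glutathione peroxidase, was 14.13, 14.05 and 14.19 in controls and 13.62, 13.98 and 14.06 at 2 μg Se/g (difference −0.24, SE 0.12, limma adjusted p = 0.34). Txnrd1, cytosolic thioredoxin reductase and also an Nrf2 target, was 10.59, 10.76 and 10.85 against 11.65, 11.24 and 11.14 (difference 0.61, SE 0.21, adjusted p = 0.32). Selenop, the Se transport protein of plasma, differed by 0.12.

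Among 28 Nrf2 targets, 3 had higher and 3 lower values at an unadjusted p under 0.05, and the median difference was 0.18. Abcc4, an efflux pump of conjugates, was 6.62, 6.14 and 6.03 in controls and 7.42, 7.04 and 6.85 at 2 μg Se/g, a difference of 0.84 (SE 0.19, limma adjusted p = 0.32). Srxn1, which repairs peroxiredoxins, was 8.73, 9.09 and 8.47 against 9.30, 9.35 and 9.28. Both were called at 5 μg Se/g, by 1.36 and 0.90, as were 9 members of the list in all, where 3.27% of all genes were called higher and 0.816% lower. Slc7a11, the cystine importer, differed by 0.23 at 2 μg Se/g and by 2.46 at 5 μg Se/g, where it was called, and limma called it higher at 5 than at 2 μg Se/g (adjusted p = 0.0010). Nqo1, a quinone reductase, differed by 0.11 at 2 μg Se/g.

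For the 22 heat shock proteins and chaperones, 5 had higher and 0 lower values at an unadjusted p under 0.05. Beside Hsph1 these included Dnaja4, an Hsp40 co-chaperone (difference 0.51), and Hsp90ab1, a cytosolic Hsp90 (0.34). Of 19 clock genes, 3 were higher and 1 lower, among them Tsku, which is no core clock protein, and Nr1d2, the repressor Rev-erb beta (0.82, SE 0.33, limma adjusted p = 0.32). The sampling time of each liver is not given in the sources used here, so its part in the clock genes was not tested.

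Matrix genes leaned towards higher values. Of 19 collagens, 5 had higher and 0 lower values at an unadjusted p under 0.05 (median 0.33), and of 31 other matrix genes 9 had higher and 0 lower values (median 0.17). Col4a1, a chain of basement membrane collagen, was 8.72, 8.88 and 8.32 in controls and 9.13, 9.42 and 9.86 at 2 μg Se/g, a difference of 0.83 (SE 0.18, limma adjusted p = 0.32). Col5a2, a fibril collagen, was 8.46, 8.59 and 8.23 against 9.22, 9.25 and 9.05. The proteoglycan decorin, Dcn, was 7.28, 7.54 and 6.91 against 8.27, 8.49 and 8.92, a difference of 1.32 (SE 0.36, adjusted p = 0.32). None of these groups overlapped. At 5 μg Se/g, 8 of the collagens and 9 of the other matrix genes were called, all higher, as were 3.27% of all genes, among them Col4a1 (2.04) and Col5a2 (1.03) but not Dcn (1.30, adjusted p = 0.090). Markers of stellate cells and myofibroblasts, 17 measured, had 0 higher and 1 lower value at this p. Their mean level was 7.47, 7.67 and 7.85 at 2 μg Se/g against 7.67 to 7.82 in single controls, and their part in the matrix values was not tested.

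Rats on 2 μg Se/g were less alike than those of any other diet in the fit. Across probe sets, r between pairs of them ran from 0.972 to 0.990, against 0.989 to 0.995 at 0.24 μg Se/g and 0.992 to 0.995 at 5 μg Se/g. The lowest r was that of replicates 1 and 3, with 2715 probe sets at least 2-fold apart. Replicates 2 and 3 had an r of 0.989 and 463 such probe sets. Replicates 2 and 3 of the controls were about as far apart, at 0.989 and 481. The SD among the 3 rats was above 0.5 for 3104 probe sets at 2 μg Se/g, 875 at 0.24 and 708 at 5 μg Se/g. Relative to the control mean, replicate 1 had 673 probe sets at least 2-fold higher and 1291 at least 2-fold lower (6.33% in all). Replicate 2 had 103 higher and 33 lower (0.438%), and replicate 3 had 78 higher and 69 lower (0.474%). The means of the 3 rats had 33 higher and 26 lower (0.190%), and 461 in all without replicate 3.

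**Figure D2:**
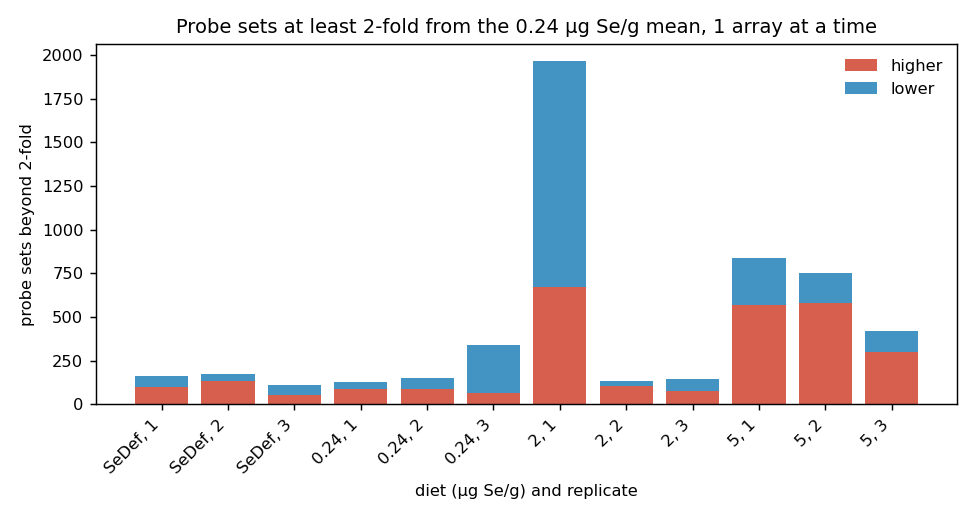
Probe sets (y axis) at least 2-fold higher or lower on 1 array than the mean of the 3 arrays at 0.24 μg Se/g, for each of 12 arrays (x axis). Each array at 0.24 μg Se/g is set against the other 2 of its group, whose mean scatters more. Replicate 1 at 2 μg Se/g has 1964, and every other array has at most 839.

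Technical measures were set beside these differences, and only the Lys and Phe spike-ins rose from replicate 1 through 2 to 3. The Lys and Phe poly-A spike-ins, the RNAs added at the lowest amounts before labelling, averaged 5.16, 5.45 and 5.84 in replicates 1, 2 and 3 at 2 μg Se/g, against 6.01, 5.83 and 5.74 at 0.24 μg Se/g. The Dap and Thr spike-ins averaged 7.80, 7.69 and 7.85 against 8.07, 7.94 and 7.91, so all 3 rats were below the controls. The hybridization controls averaged 11.07, 11.15 and 10.95 against 11.18, 11.24 and 10.90. The Gapdh 3′ minus 5′ difference, a sign of RNA integrity, was 0.20, 0.24 and 0.19 against 0.21, 0.24 and 0.17. The same difference for beta-actin was 1.44, 1.53 and 1.49 against 1.49, 1.54 and 1.49, with replicate 1 below the controls. Replicates 1 and 2 were also below the controls in the low spike-ins. The part of labelling in the differences between rats was not tested. With these spike-ins as a covariate, added after the values were seen, 2 probe sets were called, Rgs4 and another without a symbol.

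Replicate 1 lay furthest below the controls in genes of the respiratory chain, the ribosome and the proteasome, and replicate 2 was lower too. Of 49 respiratory chain genes, 34 were at least 2-fold lower in this rat than the control mean, against 7.11% of all genes, and the median difference was −1.29. Replicates 2 and 3 had 0 such genes, against 0.141% and 0.218% of all genes, and medians of −0.31 and 0.01. Below every control were 44, 44 and 5 of the 49 genes in replicates 1, 2 and 3. Over all 14217 genes these counts were 6060, 5731 and 2587. Ndufa1, a subunit of complex I, was 12.75, 12.61 and 12.78 in controls and 11.17, 12.38 and 12.65 at 2 μg Se/g. Ndufa8, of the same complex, was 12.26, 12.20 and 12.37 against 10.94, 11.84 and 12.16. In both genes replicate 1 was far below every other rat and replicate 3 closest to the controls.

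The 27 ribosomal protein genes measured had medians of −1.11, −0.14 and 0.07 in replicates 1, 2 and 3, with 15, 0 and 0 of them at least 2-fold lower. In these rats 25, 24 and 0 of them were below every control. Rpl18, of the large subunit, was 12.94, 12.85 and 12.99 in controls and 11.55, 12.67 and 12.94 at 2 μg Se/g. For the 30 proteasome genes the medians were −0.81, −0.27 and −0.01, and 10 were at least 2-fold lower in replicate 1. In replicates 1, 2 and 3, 25, 25 and 4 of them were below every control. Psmc1, an ATPase of the regulatory particle, was 10.39, 10.42 and 10.30 against 9.88, 10.03 and 10.26. The order of the 3 rats was the same in the 3 lists, and the lists are not independent of each other within an array.

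Several selenoproteins followed this order too. Over the 22 selenoproteins the medians were −0.50, −0.19 and 0.03, and 5 were at least 2-fold lower in replicate 1. Selenoh, a nuclear thioredoxin-like selenoprotein, was 10.72, 10.64 and 10.67 in controls and 9.01, 10.05 and 10.74 at 2 μg Se/g. Gpx4, which reduces lipid hydroperoxides in membranes, was 12.70, 12.62 and 12.72 against 11.40, 12.42 and 12.74. Txnrd1 ran the other way, at 0.91, 0.50 and 0.41 above the control mean in replicates 1, 2 and 3. Over 22 hepatocyte markers the medians were 0.02, 0.00 and −0.01, and the mean level was 13.80, 13.76 and 13.74 against 13.74 to 13.78 in the controls.

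**Figure D3:**
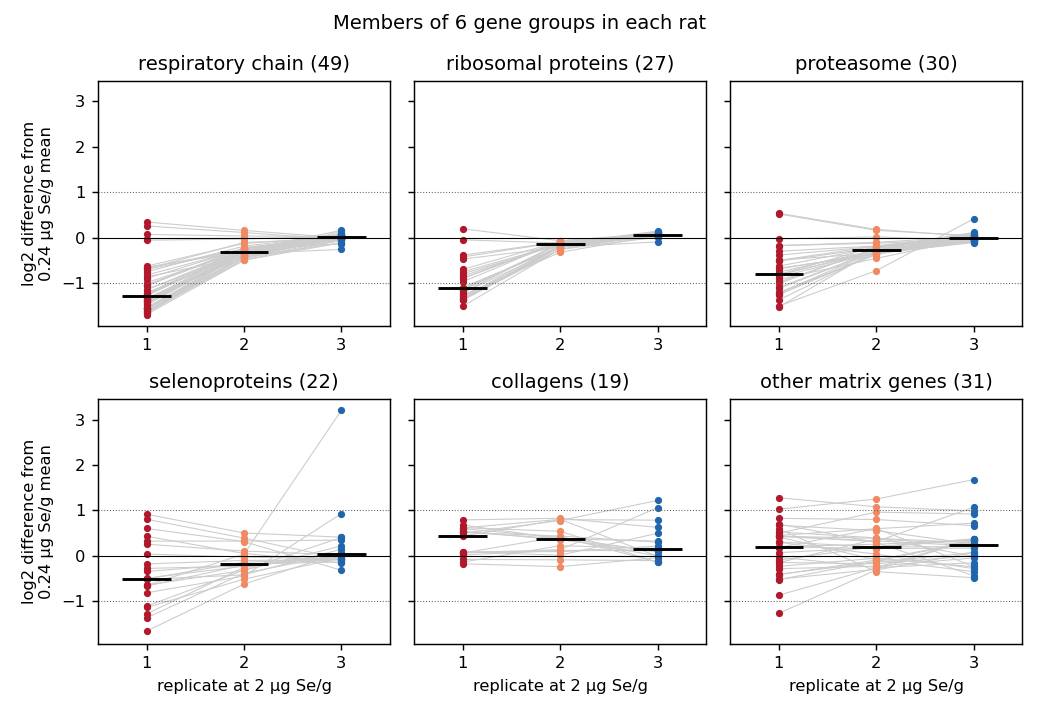
Log2 difference of each gene from the 0.24 μg Se/g mean (y axis) in replicates 1, 2 and 3 at 2 μg Se/g (x axis), for 6 gene groups. Points are genes, grey lines join 1 gene across rats, black bars are medians and dotted lines mark 2-fold. Respiratory chain, ribosomal and proteasome genes are low in replicate 1 (medians −1.29, −1.11 and −0.81) and near 0 in replicate 3. In replicates 1, 2 and 3 the medians are 0.44, 0.37 and 0.14 for collagens and 0.20, 0.19 and 0.25 for other matrix genes.

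Markers of immune cells had lower values in replicates 1 and 2. For 17 markers of Kupffer cells and macrophages the medians were −0.48, −0.44 and −0.07, with 0 higher and 8 lower at an unadjusted p under 0.05. Aif1, a macrophage actin-binding protein, was 9.002, 8.81 and 9.03 in controls and 7.39, 8.12 and 8.76 at 2 μg Se/g (difference −0.85, SE 0.28, limma adjusted p = 0.32). C1qa, a chain of complement C1q made by macrophages, was 11.05, 10.87 and 11.25 against 9.90, 10.41 and 10.97. The Kupffer cell receptors Cd163 and Clec4f differed by −0.04 and −0.29, and Csf1r, the receptor for the macrophage growth factor, by 0.06, so that the list did not move as one. The mean level of the list was 8.67, 8.76 and 9.08, against 8.98 to 9.26 in single controls.

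Neutrophil and lymphocyte markers, 18 measured, had medians of −0.33, −0.32 and −0.07, with 0 higher and 6 lower values at an unadjusted p under 0.05. S100a9, a calcium-binding protein of neutrophils, was 8.32, 7.23 and 7.26 in controls and 5.41, 6.38 and 7.59 at 2 μg Se/g. Replicates 1 and 2 lay below all controls and replicate 3 within their range. The number of such cells per liver was not measured.

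Single rats also had large differences of their own in genes of metabolism, which are given as values of 1 array without a test. Replicate 1 had Cyp7a1, the rate-limiting enzyme of bile acid synthesis, at 10.16, against 8.41 and 9.09 in replicates 2 and 3 and 7.49, 8.59 and 7.26 in controls. Its Lpl, lipoprotein lipase, was 9.35, against 8.57 and 8.31 in the other 2 rats and 6.58, 8.11 and 7.10 in controls. Lpl was thus above all controls in each rat. Akr1b7, another aldo-keto reductase, was 4.14 in replicate 1, 9.44 and 7.97 in the others and 9.40, 7.65 and 10.37 in controls. Angptl8, a feeding-induced regulator of lipoprotein lipase, was 8.55 in replicate 1 and 10.79 to 12.15 in the other 2 rats and the controls.

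Replicate 2 had Acsm5, a medium-chain acyl-CoA synthetase, at 5.71, against 7.99 and 8.998 in the other rats and 9.71, 8.07 and 8.41 in controls. Epha3, an ephrin receptor, was 7.85, 7.91 and 7.07 in replicates 1, 2 and 3 and 6.02, 5.90 and 6.03 in controls, above all controls in each rat (difference 1.63, SE 0.60, limma adjusted p = 0.32).

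Replicate 3, which was nearest to the controls in the respiratory chain, was the rat with high values of Gpx2 and metallothionein. Gpx2, the epithelial glutathione peroxidase and an Nrf2 target, was 8.46, against 4.60 and 5.29 in replicates 1 and 2 and 5.90, 5.08 and 4.79 in controls. At 5 μg Se/g it was 10.002, 6.60 and 7.95 and not called. Mt2A, a metallothionein that binds zinc, copper and other metals, was 8.97, 10.56 and 11.59 in replicates 1, 2 and 3 and 9.62 to 10.13 in controls. Pck1, the rate-limiting enzyme of gluconeogenesis, was 11.35 in replicate 3 against 13.88 and 13.13 in the others and 12.70, 13.49 and 13.13 in controls, and Pnpla3, a lipid droplet enzyme, was 9.58 against 11.40 and 11.89 and 11.40 to 12.22.

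A few of these genes had like values in the 3 rats. Sult2a2, a sulfotransferase of steroids and bile acids, was 10.27, 10.02 and 11.09 in controls and 8.90, 9.16 and 8.95 at 2 μg Se/g, a difference of −1.46 (SE 0.58, limma adjusted p = 0.32). At 5 μg Se/g it was called lower, by −3.33. Obp3, a lipocalin made under growth hormone and androgens, was 12.51, 12.46 and 12.82 in controls and 13.10, 13.16 and 13.41 at 2 μg Se/g, not called, while at 5 μg Se/g it was called lower, by −4.04. In limma, Obp3 was also called lower at 5 than at 2 μg Se/g (adjusted p = 0.0010).

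**Figure D4:**
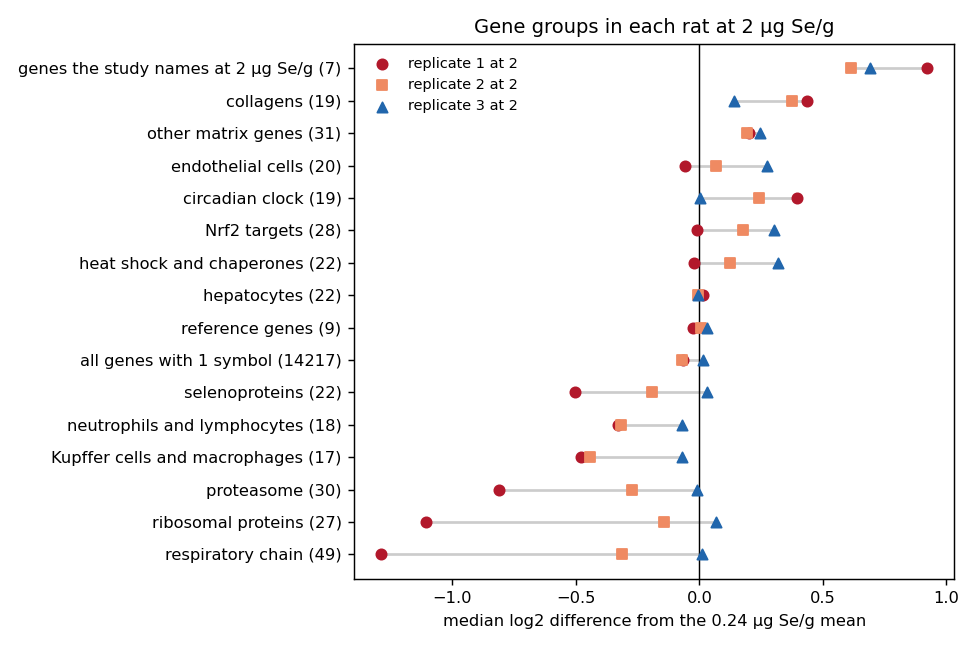
Median log2 difference from the 0.24 μg Se/g mean (x axis) over the members of 16 gene groups (y axis, number of genes measured in brackets), in each of the 3 rats at 2 μg Se/g. The genes named by the study lie at 0.61 to 0.92 in the 3 rats, hepatocyte markers lie near 0, and the respiratory chain runs from −1.29 in replicate 1 to 0.01 in replicate 3.

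Which rats enter the comparison decides its count. With all 3 controls and replicate 1 alone, limma called 7245 probe sets, 4096 higher and 3149 lower, with replicate 2 alone 0 (5315 at an unadjusted p under 0.05), and with replicate 3 alone 2, Rgs4 and Akr1b8. In these fits the lone rat is assumed to vary like the rats of the other diets. Without replicate 3, 5800 were called, and without replicates 1 or 2, 2 and 1. Rgs4 was called in each fit that left out 1 of the 6 rats, at a log2 difference of 1.58 to 1.71. It was 1.66, 1.53 and 1.76 above the control mean in replicates 1, 2 and 3. A call in limma depends on a small spread within diets, so the likeness of these 3 values is no separate evidence.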

How the data were processed

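The values are the log2 expression values per probe set that the authors deposited. The submitters' processing notes name GCRMA, and the paper's methods name RMA. Versions are not given in the sources used here. Of 31042 probe sets tested, without 57 array controls and with no filter on signal, 20826 carry 1 symbol in the platform annotation, 436 several and 9780 none. A gene is represented by its probe set with the highest mean over 12 arrays.

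limma 3.58.1 (R 4.3.3) was fitted with 1 coefficient per diet (lmFit, eBayes), and p-values were adjusted by Benjamini-Hochberg across the 31042 probe sets, at a threshold of 0.05. Figures used Python 3.11.15 and matplotlib 3.10.9. The fit was tested on simulated data. The number of arrays limits the precision, since no exact test of 3 rats against 3 can go below p = 0.10.

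The members, the 41 gene lists and the rule for named genes were chosen with earlier results of these data known. The rule takes genes called in this fit or that of 18 arrays, genes the study names here, the 25 smallest p, 2 to 4 list members, the 10 largest rises and falls of each rat outside the control range, and genes called without replicate 1. Further list members are named as examples chosen after their values were seen.

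Besides this fit, 18 other settings were run, 2 of them added after values were seen: the spike-in covariate, and a second array-weight method (gene-by-gene), run because limma's default method stopped before reaching its tolerance. Both array-weight results are given. No rat sequence is printed. Enzyme activities and qRT-PCR were not analysed here.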

Additional observations from a re-analysis of the deposited data

How the results depend on the processing

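The count of calls depends on the arrays used and on their weights. Against 1 probe set called (1 higher, 0 lower), 6 (5 higher, 1 lower) were called with all 18 rat arrays, 0 with only the 2 diets in the fit, 2 (both higher) with the spike-in covariate, and 7245 (4096 higher, 3149 lower), 0 and 2 with replicate 1, 2 or 3 alone at 2 μg Se/g. Limma array weights gave 13048 calls (6154 higher, 6894 lower) by the default method, which stopped before its tolerance was reached, and 10433 (5169 higher, 5264 lower) by the gene-by-gene method, tried after that. Replicate 2 at 2 μg Se/g had a weight of 153.75 and 12.957 in these 2 fits, and replicates 1 and 3 had 0.17 and 0.16, and 0.25 and 0.25, so these counts rest almost wholly on replicate 2 as the group; with equal weights replicate 2 alone gave 0. Neither is used in the text. Leaving out 1 array gave 1 to 5800 calls, 1 to 3298 higher and 0 to 2502 lower. Trend and robust fitting, the filter at the median signal and quantile normalization each gave 1 call.

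Against 59 probe sets beyond 2-fold, array weights gave 146 and 133, the spike-in covariate 111, the single rats 1964, 136 and 147, and leaving out 1 array 47 to 461. For replicate 2 on its own, leaving out 1 control gave 129 to 292. Rgs4 kept its direction in all 19 fits and lost its call with only the 2 diets (adjusted p = 0.071) and with replicate 2 alone (adjusted p = 0.10).

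Replicate numbers do not pair the rats (r of residuals −0.03, 0.18 and 0.27, with 0.1 needed for every number). With the replicate block 1 probe set was called, Rgs4, at 1.65 (adjusted p = 0.0013), and the block changed no other call. Of 215 named genes, 72 changed sign in at least 1 other setting, 20 of them on leaving out 1 array, and none of the 72 was called in the fit of 12 arrays. Replicate 3 alone turned 45 of them. Star (0.01) was −0.0043 and −0.0045 with the 2 array weights, −0.031 with replicate 3 alone, and −0.046 to 0.057 on leaving out 1 array, below 0 without replicate 2 at 2 μg Se/g (−0.0087) or replicate 3 of the controls. St3gal2 (−0.06) was −0.16 to 0.019 on leaving out 1 array, above 0 without replicate 3 of the controls. These values are of its brightest probe set. The other St3gal2 probe set differed by 0.33 at 2 μg Se/g, with overlap, and was called higher at 5 μg Se/g, by 0.99. Cyp2c12 (0.30) was −1.85 and −1.74 with the array weights (adjusted p = 0.0020 and 0.0090), and −0.33 to 1.06 on leaving out 1 array, below 0 without replicate 3 at 2 μg Se/g or replicate 3 of the controls (−0.25). The causes of these changes were not tested.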
